A study of Mus musculus with 54 samples.

Results

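Wildtype H2K myogenic progenitors were compared between day 1 (T24, 24 h) and day 2 (T48, 48 h) of differentiation, through the deposited table that sets these groups against each other. All genes of that table were taken, which were 17313 of the 19653 genes listed anywhere in the series. H2K progenitors are conditionally immortal mouse muscle precursor cells that proliferate in medium with γ-interferon, fetal bovine serum, and chick embryo extract. Differentiation begins when this medium is replaced by DMEM with horse serum and without γ-interferon. Per the study's methods, the culture temperature is raised and the carbon dioxide level lowered at the same change. H2K cells are named for the H-2K promoter, which drives a temperature-sensitive large T antigen under γ-interferon, and this holds for every line of the series. Both groups are wildtype cells in differentiation medium, with 3 labelled replicates at T24 and 3 at T48. The series holds 54 samples in 18 groups, at T=0, T=24, and T=48 for each of 6 lines. These are wildtype, EMD-/y (which lacks emerin), and 4 lines made by putting emerin back into EMD-/y cells, as the normal protein (+EMD) or as the variants S54F, Q133H, and Δ95–99. Wildtype is 1 line, and no label says that myotubes were separated from unfused cells, so fewer cells of a kind and less RNA per cell cannot be told apart in any value below.

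The values are the authors' group means of DESeq2-normalized counts, and no values per library are analysed here, so no spread between replicates, standard error, or p-value accompanies them. Whether labelled replicates were separate cultures is not stated for each sample, and the study's methods describe technical and biological replicates together. A gene was called higher or lower at T48 when the means differed at least 2-fold and the higher mean was at least 10 normalized counts. Of 13268 genes past this minimum, 1080 were called higher (8.14%) and 1618 lower (12.2%). These shares are the background for every count of a gene list below. The same groups are listed in several separately normalized tables, which shows how far the listed mean of a group moves between tables. Over 10339 genes, the wildtype T24 mean in 6 other tables lay between 0.077 and 0.185 above its value here on the log2 scale (median over genes), with an SD over genes of at most 0.050. Over 10112 genes, the wildtype T48 mean in 5 other tables lay between -0.12 and 0.066 from its value here, with an SD of at most 0.030. Some single genes moved much further than these medians. In the comparison of T0 with T24, the wildtype T24 value was 1001 for Ly6a (367 here), 1219 for Cd74 (691 here), and 11983 for Iigp1 (7194 here). Why these genes moved was not tested, and a ratio of such genes depends on the table it is taken from. None of these values holds a spread between libraries. The listed means summed to 17.2 M normalized counts at T24 and 19.6 M at T48, with a median log2 ratio of -0.0047 over all genes past the minimum. Had both columns been scaled to the same sum, every log2 ratio would shift by -0.19, with 818 genes called higher and 2139 lower, or 27.7% of calls higher in place of 40.0%.

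Skeletal muscle forms when committed progenitors leave the cell cycle, switch on the myogenic regulatory factors, and fuse into multinucleated myotubes. The regulators Myod1 and myogenin act with Mef2 factors on E-boxes and A/T-rich elements of muscle genes, and the sarcomere is then assembled from thin actin filaments, thick myosin filaments, and the Z-disc and M-band proteins that anchor them. Genes for DNA replication are controlled by E2F factors. Genes for mitosis are controlled by the DREAM and MuvB complexes, which bind an element called the CHR next to CCAAT boxes. Emerin, the product of Emd, is a protein of the inner nuclear membrane that binds lamins and chromatin regulators, and its loss causes Emery-Dreifuss muscular dystrophy.

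Stretches of promoter sequence are shown for genes of the mitosis, replication, sarcomere, and ATF4 lists, because known binding motifs were searched for in these lists. Each is a member whose stretch holds the motif, chosen with its values known, and its ratio need not be large for its list. Fgf21, a known ATF4 target that stands in the cytokine list, was added to the last pair. Sequences are from RefSeq on build GRCm38.p6 and run 5′ to 3′ on the gene's strand, up to 150 bases that lie outside the gene's own annotated bounds. Capitals mark the motif named for that gene, in either orientation. The first pair holds the CHR (TTTGAA) and the CCAAT box (CCAAT) in front of Mki67, which encodes the proliferation antigen Ki-67, and Ckap2l, which encodes a mitotic spindle protein. Mki67 (chr7:135716451-135716600, minus strand) and Ckap2l (chr2:129297229-129297378, minus strand) were 53.3-fold and 39.3-fold lower at T48.
Mki67: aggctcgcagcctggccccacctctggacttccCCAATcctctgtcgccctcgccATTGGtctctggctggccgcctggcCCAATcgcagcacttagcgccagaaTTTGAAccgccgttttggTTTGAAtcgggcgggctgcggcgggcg
Ckap2l: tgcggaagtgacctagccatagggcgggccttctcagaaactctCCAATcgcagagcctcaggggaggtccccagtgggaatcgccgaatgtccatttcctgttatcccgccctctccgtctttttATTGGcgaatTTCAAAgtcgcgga
The E2F motif (TTTNNCGC) is shown in front of Uhrf1 (chr17:56303187-56303336, plus strand), a reader of newly replicated DNA that was 8.64-fold lower. Klhl41 (chr2:69669970-69670119, plus strand), which stabilises sarcomere proteins, was 3.19-fold higher. Its stretch holds both an E-box (CAGCTG) and a MEF2 element (CTA and TAG with 4 bases between them).
Uhrf1: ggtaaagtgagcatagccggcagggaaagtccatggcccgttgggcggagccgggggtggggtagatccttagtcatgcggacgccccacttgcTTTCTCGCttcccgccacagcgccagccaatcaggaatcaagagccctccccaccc
Klhl41: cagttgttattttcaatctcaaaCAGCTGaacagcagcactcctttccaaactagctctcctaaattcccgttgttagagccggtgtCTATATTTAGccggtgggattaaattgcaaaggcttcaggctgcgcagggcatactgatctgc
The last pair shows the C/EBP-ATF response element (TGATGNAA, called CARE here), to which ATF4 binds, in front of Fgf21 (chr7:45615491-45615640, minus strand) and Asns (chr6:7693210-7693359, minus strand).
Fgf21: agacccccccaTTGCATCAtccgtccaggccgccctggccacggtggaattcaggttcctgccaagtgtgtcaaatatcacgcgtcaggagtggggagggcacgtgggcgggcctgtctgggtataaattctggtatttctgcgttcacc
Asns: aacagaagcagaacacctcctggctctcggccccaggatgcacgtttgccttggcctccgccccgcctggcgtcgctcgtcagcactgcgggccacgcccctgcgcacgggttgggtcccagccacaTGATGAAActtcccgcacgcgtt
In windows of 300 bases around the start (250 before and 50 after), TTTGAA was present in 41 of 59 matched mitosis genes (69.5%), against 11.7% of 10003 genes past the minimum and 18.2% of 27025 promoters. TTTNNCGC was found in 17 of 42 replication genes (40.5%) against 8.79% and 5.29%. CAGCTG was found in 23 of 59 genes of the sarcomere lists (39.0%) against 15.3% and 16.1%, and the MEF2 element in 15.3% of the same genes against 3.01% and 3.70%. TGATGNAA was present in 6 of 32 genes of the ATF4 and unfolded-protein list (18.8%) against 2.07% and 4.06%. CCAAT was present in 71.2% of the mitosis genes, 61.9% of the replication genes, and 68.8% of the ATF4 list, but in 30.5% of the sarcomere genes, against 39.3% of genes past the minimum. Both strands were searched, no motif contains another, and a match is only a match of letters.

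A small set of genes shared a split of groups that was also present in other lines. In those lines, 15 genes with an Entrez identifier and 100 genes that carry a predicted identifier set EMD-/y T24 apart from EMD-/y T0 and T48, and the T0 groups of S54F, Q133H, and Δ95–99 apart from their T24 groups, in the same direction. Of the 2391 calls on Entrez genes between wildtype T24 and T48, 12 followed this split (0.502%), whereas 87 of the 307 calls on predicted genes did (28.3%). Predicted genes were called higher in 23.5% and lower in 14.9% of cases, against 892 and 1499 of 12469 Entrez genes, and predicted genes are not described further. Entrez genes on this split were Asdurf, Rps29, Rps13, Atp5g2, and Gapdh, lower at T48, and Lrp1b, Wdr89, Rpl34-ps1, Gm4737, Havcr1, Atp5md, and Pebp1, higher at T48. What sets the split was not tested, and its genes are marked as such where they appear.

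All 9 markers of skeletal myogenic cells were expressed, with summed means of 129800.0 at T24 and 248990.0 at T48. Myod1 (15998 at T24 and 20924 at T48) and Cdh15, the M-cadherin gene (11412 and 12236), differed little, and Pax7, the satellite cell factor, was 123 at T24 and 53.1 at T48. Markers of most other cells were low. The 8 listed markers of fibroblasts and fibro-adipogenic cells summed to 507 and 467, most of it Ly6a (367 and 306), with Lum near 0. The T24 value of Ly6a was 1001 in the comparison of T0 with T24, where T0 was 4223. Endothelial markers summed to 114 and 71.7. Leukocyte markers summed to 107 and 280.1, most of it Itgam, an integrin subunit (73.3 and 253), while Csf1r was at 1.7 and 2 and Lyz2 at 1.83 and 1.76. Among defining endothelial markers, Pecam1 was at 7.53 and 2.51. Adipocyte markers summed to 3.59 and 3.75, Schwann and neural markers to 34.3 and 19.1, epithelial markers to 20.1 and 17.6, and cardiac markers to 152 and 208. The smooth muscle and pericyte list was not low. It summed to 65091 and 99869.7, mostly through Acta2, which early muscle cells also express, while its defining myosin Myh11 was at 6.49 and 5.21. Of its 7 members past the minimum, 4 were called lower and 0 higher (median log2 ratio -1.14). The lower members were Pdgfrb, a pericyte receptor (2583 and 1084), Mcam (501 and 228), Notch3 (4396 and 1674), and calponin (Cnn1, 30.9 and 11.4). The part of other cells in the differences below was not tested. Emd was listed at 1632 at T24 and 1075 at T48, a log2 ratio of -0.60.

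**Figure D1:**
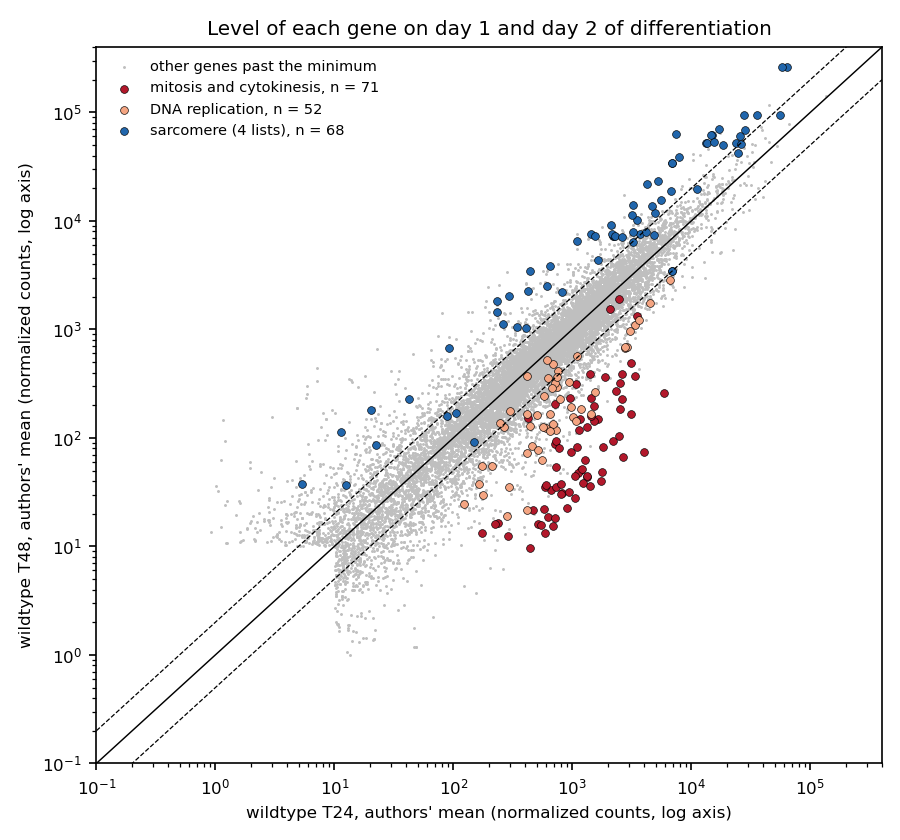
Authors' mean at T24 (x axis) against T48 (y axis), both in normalized counts on log axes, for the 13268 genes past the minimum, with dashed lines at 2-fold. Of 71 mitosis genes (red) 69 lie below the lower line, as do 44 of 52 replication genes (orange), while most sarcomere genes (blue) lie above the upper line, with Acta1 and Myh3 highest.

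Genes of the contractile apparatus were higher on day 2, from levels that were already high on day 1. Of 8 myosin heavy chains past the minimum, 7 were called higher and 0 lower, with a median log2 ratio of 2.39. These chains are the motors of the thick filament, and their share of all normalized counts was 0.455% at T24 and 1.84% at T48. Myh3, the embryonic chain, was 64098 at T24 and 261928 at T48 (4.09-fold). The perinatal chain Myh8 was 7405 and 63639 (8.59-fold), and the slow chain Myh7 was 1421 and 7593 (5.34-fold). Both developmental chains were thus higher on day 2, with the larger ratio in Myh8. The adult fast chains had ratios of similar size at lower levels, with Myh1 (IIx) at 4239 and 21743, Myh2 (IIa) at 650.1 and 3826, and Myh4 (IIb) at 92.4 and 679.6. Myh6, the atrial chain, was 22.3 and 86.4, and Myh7b (88.3 and 159) did not reach 2-fold. Per kilobase of the gene length listed in the tables, the level on day 2 was 43329.7 for Myh3, 10192 for Myh8, 3570.3 for Myh1, 1259.6 for Myh7, 629 for Myh2, and 113 for Myh4, and the order on day 1 was the same. These genes share long near-identical stretches, and how reads that match several copies were counted is not given in the sources used here.

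Light chains and thin filament genes had ratios like those of the heavy chains. In the list of myosin light chains and their kinases, 6 of 7 were called higher (median log2 ratio 2.02). Mylpf, the fast regulatory chain, was 17167 and 69473, the essential chains Myl1 and Myl4 were 13298 and 52269.7 and 15022 and 61313, and Myl2, the slow regulatory chain, was 20.3 and 181. In the thin filament list, 14 of 17 were called higher and 0 lower (median 1.79), and the list's share of all counts was 1.77% and 4.69%. Acta1, skeletal muscle α-actin, had the largest gain in normalized counts of any gene with an Entrez identifier, from 57443 at T24 to 262758 at T48 (4.57-fold). The cardiac actin Actc1 was 27461 and 95089.6 (3.46-fold), while the smooth muscle actin Acta2 was 55819 and 94393 and was not called. Among troponins, Tnnc1 was 14758 and 61259.7, Tnnc2 was 6864 and 33808, and Tnni1 was 7926 and 38529. Lmod2, which nucleates actin, and Tmod1, which caps pointed ends, had log2 ratios of 2.40 and 2.24.

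Of 36 genes for the Z-disc, the M-band, and sarcomere assembly, 30 were called higher and 0 lower, with a median log2 ratio of 1.59. The giant spring Ttn was 28120.3 at T24 and 68373 at T48, desmin (Des) was 25607 and 60836, and the filamin Flnc was 26189 and 50858, just under 2-fold. Larger ratios were seen for the titin cap Tcap (234 and 1439.9), the Z-disc protein Myoz2 (233 and 1826), the small heat shock protein Hspb7 (444 and 3448), and Ankrd23 (293 and 2022). Xirp2, an actin-binding repeat protein, had the largest ratio of the list, from 11.3 to 114 (log2 3.33). No member of the 4 sarcomere lists was called lower.

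**Figure D2:**
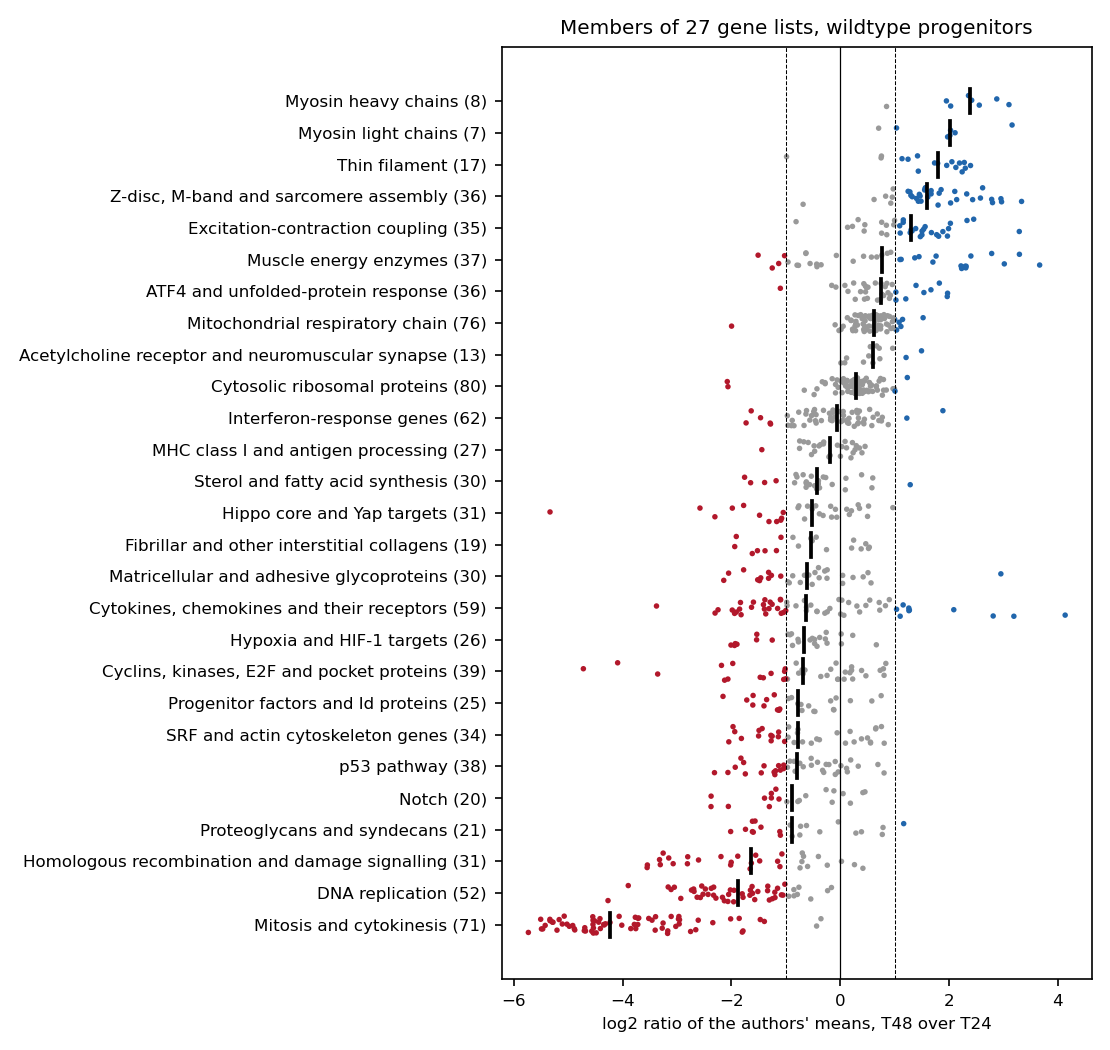
Log2 ratio of the authors' means, T48 over T24, for each member past the minimum of 27 gene lists (number of members in parentheses), with bars at list medians, dashed lines at 2-fold, blue for called higher and red for called lower. The lists of sarcomere genes sit at the right, with medians between 1.59 and 2.39, and mitosis, replication, and recombination genes at the left, with medians between -4.23 and -1.63.

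The calcium store and its release machinery were higher on day 2 as well. Among 35 genes of excitation-contraction coupling, 23 were called higher and 0 lower (median log2 ratio 1.30). Casq1, the calsequestrin of fast muscle, was 187 at T24 and 1835 at T48 (9.8-fold), and the cardiac and slow form Casq2 was 10295 and 36091 (3.51-fold). Per kilobase, Casq2 remained the more abundant form on day 2, at 13967 against 979 normalized counts. The fast calcium pump Atp2a1 was 10225 and 41644 (4.07-fold) and the broadly expressed pump Atp2a2 was 13377 and 32622 (2.44-fold). Per kilobase, Atp2a1 was the lower of both pumps at T24 (2593 and 3033) and the higher at T48 (10561 and 7396). Sarcalumenin (Srl) was 17499 and 64748, the voltage sensor Cacna1s was 2254 and 8842, the junctional protein Trdn was 1083 and 5451, and Hrc, a calcium-binding protein of the store, was 2721 and 10823. Parvalbumin (Pvalb), the soluble calcium buffer of fast fibres, was still near the minimum at 2.88 and 15.8.

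Genes of the muscle membrane differed less. Of 13 genes of the acetylcholine receptor and the neuromuscular synapse, 2 were called higher and 0 lower (median 0.60). The fetal receptor subunit Chrng was 4418 and 10226, Chrna1 was 20142 and 39290.0, just under the threshold, and the esterase Ache was 22.4 and 63. In the dystrophin-glycoprotein complex, 5 of 20 were called higher and 1 lower. The sarcoglycan Sgcd (102 and 317) and sarcospan (Sspn, 890.4 and 2179) were higher, and the dystrobrevins went opposite ways, with Dtna at 1324 and 2828 and Dtnb at 199 and 76.7.

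Fusion genes were called higher more often than all genes, while their lower calls lay near the share of all genes. Of 25 genes for myoblast fusion and adhesion, 7 were called higher and 3 lower, against 8.14% and 12.2% of all genes past the minimum. Myomaker (Mymk), the membrane protein required for fusion, was 15406 at T24 and 50621 at T48 (3.29-fold), and its partner myomixer (Mymx) was 732 and 1119, below the threshold. The adhesion molecule Ncam1 was 13877 and 45626, the laminin receptor subunit Itga7 was 8241 and 19735, caveolin-3 (Cav3) was 1704 and 6135, and Tmem182, which encodes a muscle membrane protein, was 955 and 3963. The lower genes were Kirrel, an adhesion molecule of the nephrin family (3357 and 826), Dock1, an exchange factor for Rac (1217 and 480.4), and Adgrb1, an adhesion receptor near the minimum (10.4 and 3.61). Mymx and Dock1 lie outside the rule for named genes and were added after their values were seen.

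Several muscle isoforms of energy enzymes were higher, while several glycolytic enzymes were lower. Of 37 energy genes, 16 were called higher and 4 lower. Creatine kinase (Ckm) was 1768 and 8799, myoglobin (Mb) was 1095 and 7550.1, the insulin-responsive glucose transporter Slc2a4 was 177 and 934, and the mitochondrial creatine kinase Ckmt2 was 4.04 and 39.6. Ldha (31755 and 21617), Pkm (46970.3 and 34779), and Eno1 (28750.1 and 21366) were lower by less than 2-fold. Aldolase A (Aldoa, 38724.5 and 73725) was higher by less than 2-fold. Isoform pairs, chosen after their values were seen, moved in opposite directions in phosphofructokinase, with the liver form Pfkl at 3677 and 1291 and the muscle form Pfkm at 2224 and 7547, and in phosphoglycerate mutase, with Pgam1 at 14485 and 6609 and the muscle form Pgam2 at 1365 and 6763. Gapdh, also called lower (5756 and 2419), is among the genes on the split of groups described above and was likewise chosen after its values were seen.

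Subunits of the respiratory chain were almost all somewhat higher. Of 76 subunits, 6 were called higher, near the 8.14% of all genes, and 1 lower, against 12.2% of all genes. Log2 ratios were above 0 for 73, with a median of 0.62 that a shift of -0.19 would leave above 0. In the other lines the median lay between 0.16 in Q133H and 0.64 in EMD-/y, with 9 called higher in EMD-/y, 1 in S54F, and 0 in the rest. Atp5b and Atp5a1, which form the catalytic head of the ATP synthase, were 25892 and 41483 and 12659 and 22100.5. Ndufc1, a complex I subunit, had the largest ratio (401 and 1154), and the 1 gene called lower, Atp5g2 (2304 and 577), follows the split of groups described above. Muscle-specific forms of cytochrome oxidase subunits were far higher, with Cox6a2 at 194 and 2460.1 (12.7-fold) and Cox8b at 64.9 and 525 (8.1-fold). Ribosomal protein genes had a median log2 ratio of 0.29 over 80 genes, with 2 called higher (Rpl39 and Rpl27) and 2 lower (Rps29 and Rps13, both on the split of groups described above). Transcripts of the mitochondrial genome were not analysed here.

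**Figure D3:**
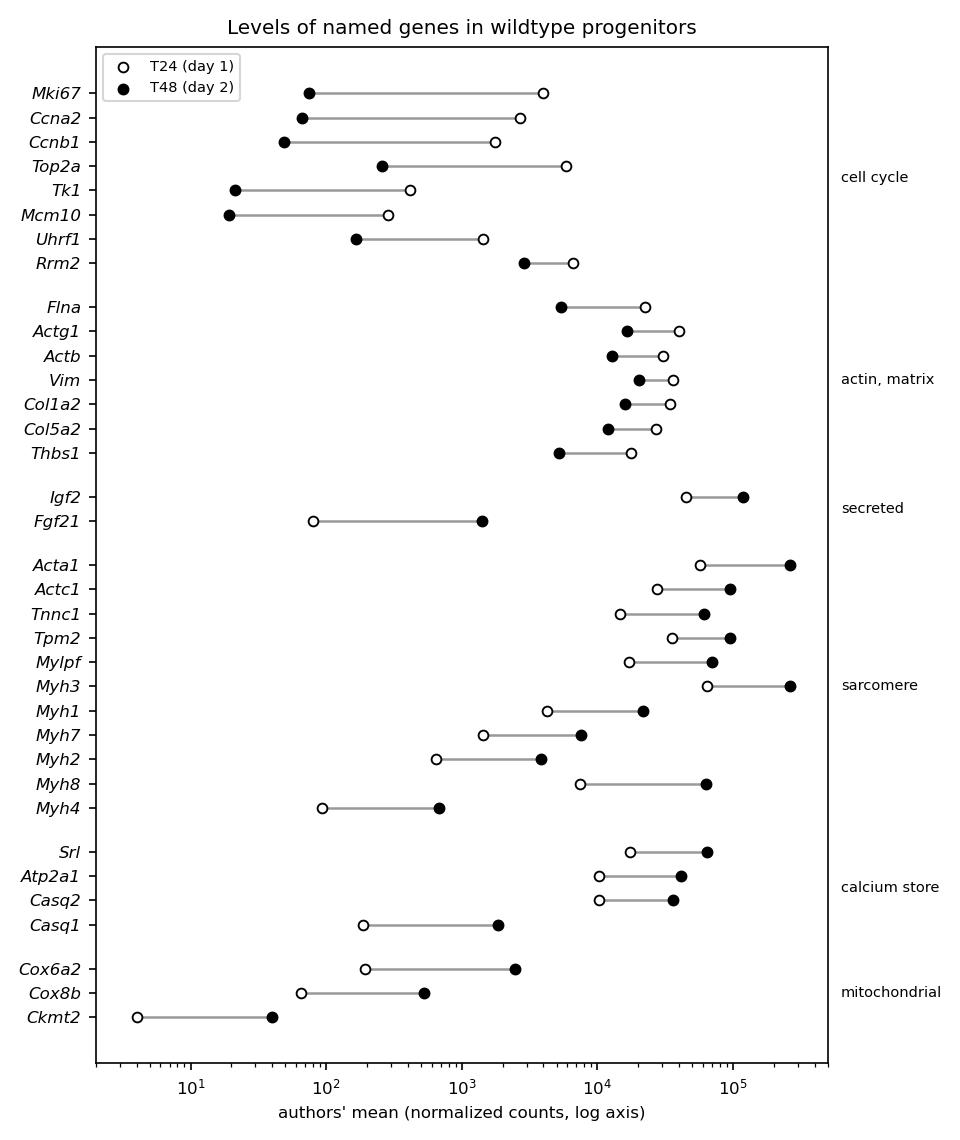
Authors' mean in normalized counts (log x axis) at T24 (open circles) and T48 (filled circles) for genes grouped by function, with no replicate spread to draw. Cell cycle genes and actin and matrix genes lie to the left at T48, and Fgf21, Igf2, sarcomere, calcium store, and mitochondrial genes to the right.

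Most regulators of muscle differentiation did not reach 2-fold. Of the 4 myogenic regulatory factors, myogenin (Myog) was 34191 at T24 and 50156 at T48, Myf5 was 209 and 134, and Myod1 is given above. Myf6, the late factor MRF4, was the 1 called higher, at 7.56 and 54.8. Among 16 Mef2 and other muscle transcription factors, 3 were called higher and 0 lower. Mef2c was 3741 and 11539, Mef2d was 5709.6 and 12224, Mef2a was 16369 and 18838 and was not called, and Mlip, a lamin-interacting muscle protein, was 39.5 and 289. The median of this list (0.099) lies below 0 when the columns are scaled to the same sum. Progenitor factors and Id proteins were lower or level, with 0 called higher and 10 lower of 25. The inhibitors of E-protein binding Id1 and Id3 were 589.7 and 193 and 1070.0 and 240.1, and the adhesion molecule Vcam1 was 1561 and 611.

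Genes of cell division had the largest decreases among Entrez genes with a higher mean of at least 50. Of 71 genes for mitosis and cytokinesis, 69 were called lower and 0 higher, with a median log2 ratio of -4.23. Their summed level was 100260.0 at T24 and 12326 at T48, or 0.584% and 0.063% of all normalized counts. Mki67 was 3977 and 74.6 (53.3-fold lower, log2 -5.74). Cyclin A2 (Ccna2) was 2669 and 65.9, cyclin B1 (Ccnb1) was 1762 and 49, cyclin B2 (Ccnb2) was 1043 and 28.2, and topoisomerase II (Top2a) was 5838 and 260.1. Kinetochore and spindle genes had ratios of the same size, with the microtubule depolymerase Kif2c at 689.9 and 15.3, the kinetochore scaffold Knl1 at 708 and 18.2, the hyaluronan-mediated motility receptor Hmmr at 1723 and 40.1, and separase (Espl1) at 585 and 13.2. Survivin (Birc5), a subunit of the chromosomal passenger complex, was 906 and 22.4. The members not called were Bub3 (2070.1 and 1531) and Hjurp (2442 and 1909.5), named after their values were seen because they are the exceptions.

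Replication genes were lower by a smaller factor than mitosis genes. Of 52, 44 were called lower and 0 higher, with a median log2 ratio of -1.88. Thymidine kinase (Tk1) was 413 and 21.4, the origin factors Mcm10 and Cdc6 were 284 and 19.1 and 292 and 35.3, and DNA ligase 1 (Lig1) was 1082 and 142. Ribonucleotide reductase stood closer to the threshold, with Rrm1 at 6923 and 3416 and Rrm2 at 6606 and 2876, and Dnmt1, the maintenance methyltransferase, was 3606 and 1212. In the list of homologous recombination and damage signalling, 21 of 31 were called lower and 0 higher (median -1.63), among them Fancd2 (248 and 21.1) and the nuclease Exo1 (216 and 18.5), while the sensor gene Rad50 was 1138 and 750.3.

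Cyclins, kinases, E2F, and pocket proteins were mixed, with 14 of 39 called lower and 0 higher. E2f7 (396 and 15), cyclin E2 (Ccne2, 469 and 45.7), cyclin D1 (Ccnd1, 2824 and 674), and the pocket protein Rbl1 (1041 and 229) were lower. The retinoblastoma gene Rb1 was level at 9176 and 9787. Cyclin D3 (Ccnd3, 8019.6 and 13906) and the inhibitor Cdkn1a, which encodes p21 (39577 and 69202), were higher by less than 2-fold. Histone genes went against the other cell cycle lists, with 9 of 19 called higher and 4 lower. H1f4 (4.73 and 61.8), H1f2 (236 and 1269), H2bc4 (411 and 2682), and H2bc18 (5.58 and 45.4) are replication-dependent histones, whose mRNAs normally end without a poly(A) tail, and poly(A) RNA was sequenced here. What part RNA selection has in these values was not tested. H2bc18 had a log2 ratio of 3.03 in wildtype progenitors but -0.17 in EMD-/y, -0.90 in +EMD, 0.64 in S54F, -1.72 in Δ95–99, and -0.84 in Q133H. The replacement histones H3f3b (5305 and 2472) and H2az1 (4434 and 2859.9) were lower, the second by less than 2-fold.

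The p53 pathway was lower on day 2. Of 38 genes, 15 were called lower and 0 higher (median -0.79). The feedback ligase Mdm2 was 11635 and 5648, cyclin G1 (Ccng1) was 41859.9 and 23252 and was not called, and Trp53inp1, an inducer of p53 activity, was 10214 and 3046. Ddit4, which restrains mTORC1, was 1531 and 401. Cdkn1a, also a p53 target, had a log2 ratio of 0.81.

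Genes of the non-muscle cytoskeleton were among the largest losses in counts. Of 34 SRF targets and actin cytoskeleton genes, 13 were called lower and 0 higher. This list leaves out the muscle actins Acta1 and Actc1, which are counted with the thin filament and were called higher. The cytoplasmic actins Actg1 and Actb were 40177 and 16598 and 30279.5 and 12711, filamin A (Flna) was 22345 and 5398, the tropomyosin Tpm4 was 8607 and 2441, and Tagln2, a transgelin, was 1877 and 489. Vimentin (Vim) was 36188 and 20104 and caldesmon (Cald1) was 23179.6 and 8448. Per kilobase, Actg1 was 20882 and Acta1 38787 at T24, and 8627 and 177419 at T48. Nestin (Nes), the intermediate filament of immature muscle, was 45011 and 53722, and Tuba1a was 32128 and 50639.

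Genes for the extracellular matrix were lower more often than higher, with exceptions in the basement membrane. Of 19 interstitial collagens, 7 were called lower and 0 higher, including Col1a2 (34105 and 16022), Col5a2 (27187 and 12055), and Col12a1 (4998 and 1739), whereas Col3a1 was 21635 and 14866. Of 18 basement membrane genes, 5 were called higher and 6 lower. The network collagen Col4a1 was 10026 and 3771 and nidogen-2 (Nid2) was 15567 and 7647. The transmembrane collagens Col13a1 (15.2 and 70.9) and Col25a1 (1872 and 5471) and the laminin chain Lama4 (15.7 and 60.2) were higher. Perlecan (Hspg2) was 23242 and 29773.

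Matricellular proteins (10 lower and 1 higher of 30), proteoglycans (9 and 1 of 21), and matrix proteases with their inhibitors (9 and 1 of 37) had the same balance. Thrombospondin-1 (Thbs1) was 17739 and 5176, osteopontin (Spp1) was 14938 and 5216, and versican (Vcan) was 12710.0 and 4149.5. The lysyl oxidase Lox, which cross-links collagen, was 5799 and 1645, and the plasminogen activator Plau was 4143 and 1219. The single higher genes of these lists were Mfap4, a microfibril protein (106 and 823), Gpc4 (622 and 1396), which lies outside the rule for named genes, and the protease Adamts20 (38.3 and 166). Among 19 integrins and their partners, 3 were called higher and 5 lower, and the muscle integrin binding protein Itgb1bp2 was 1665 and 6682, while Itgb1 was 22042 and 23982.

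Receptors and effectors of the Notch pathway were lower. Of 20 genes, 9 were called lower and 0 higher. Notch1 was 6831 and 2839, Notch2 was 2942 and 1191, Notch3 was 4396 and 1674, and the modifier Lfng was 32.2 and 6.2. The DNA-binding partner Rbpj was 3054 and 1813 and was not called. Hippo components and Yap targets had 11 lower and 0 higher of 31, with the targets Ccn2 (607 and 217), Areg (85.1 and 21.5), and Ereg (147 and 43) lower and Ankrd1 at 10433 and 8002. Birc5, counted in this list too, is also a mitosis gene.

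Counts in the TGF-β, Wnt, and ERK lists lay near the shares of all genes called. Of 38 genes of the TGF-β, BMP, and myostatin pathways, 4 were called higher and 6 lower. Myostatin (Mstn), which limits muscle growth, was 50.1 and 234, noggin (Nog), a BMP antagonist, was 85.8 and 514, and Fstl3, which binds myostatin and activin, was 434 and 1378. The BMP antagonist Grem1 was lower (135 and 44.7), as was the activin subunit Inhba (1596 and 563). In the Wnt list, 5 were called higher and 7 lower of 38, with Wnt10a at 189.6 and 561 and the antagonist Sfrp1 at 119.9 and 39.9. ERK feedback and immediate early genes had 2 higher and 5 lower of 37, with Egr1 level at 5330.4 and 5299 and Fosl1 lower at 888 and 252.

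Igf2, the insulin-like growth factor that muscle cells secrete as they differentiate, had the largest gain in counts after Acta1 and Myh3, from 44829 at T24 to 117527 at T48 (2.62-fold). The 23 genes of its axis took 0.49% of all normalized counts at T24 and 0.865% at T48, with 3 called higher and 2 lower. Pappa2, a protease that frees the factor from binding proteins, was 116 and 454, the receptor Igf2r was 8482 and 9859, and Igfbp5 was 6630.3 and 10534. Igf2 is imprinted, and of 17 imprinted genes 6 were called higher and 3 lower, with Zdbf2 at 609.8 and 3446 and Mest at 7243 and 2288.

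Among 59 cytokines, chemokines, and their receptors, 10 were called higher and 24 lower. Fgf21, a hormone of metabolic stress, had the largest log2 ratio of all Entrez genes past the minimum, from 79.8 at T24 to 1404 at T48 (17.6-fold, log2 4.14). Irisin's precursor Fndc5 was 3862 and 8292. The lower genes included Csf1 (5968 and 1926), neuregulin-1 (Nrg1, 604 and 127), and Angptl4, a lipase inhibitor (354 and 34).

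Targets of ATF4 and of the unfolded-protein response were the stress genes that were higher. Of 36, 9 were called higher and 1 lower, with a median log2 ratio of 0.74, and 33 had a ratio above 0. Asparagine synthetase (Asns) was 925 and 3617 (3.91-fold), the glutathione-degrading enzyme Chac1 was 89.5 and 352, the pseudokinase Trib3 was 37.8 and 134, the proline synthesis enzyme Pycr1 was 184 and 584, and the amino acid transporter Slc7a5 was 2257 and 5929. The endoplasmic reticulum chaperone Hspa5 was 10277 and 19930.5, just under 2-fold, while Calr was 17948 and 21729 and Pdia3 was 19009 and 17987. The gene called lower, Sesn2 (1724 and 803), lies outside the rule for named genes. Fgf21 and Asns, whose CARE letters are shown above, had ratios of 4.14 and 1.97 on the log2 scale.

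In the other metabolic and stress lists, hypoxia and HIF-1 targets had 7 lower and 0 higher of 26, with Ndrg1 at 632 and 218 and the carbonic anhydrase Car9 at 33.5 and 8.32. Sterol and fatty acid synthesis had 4 lower and 1 higher of 30, near the shares of all genes called, with the desaturases Fads1 (3165 and 1397) and Fads2 (2052 and 783) lower and the last enzyme of cholesterol synthesis, Dhcr7, higher (1459 and 3561). NRF2 antioxidant genes had 4 higher and 5 lower of 31. Nqo1 was 187 and 74.3, and the extracellular enzymes Gpx3 and Sod3 were 887 and 2284 and 27.5 and 135. Atrogenes, autophagy, and FoxO genes had 2 higher and 4 lower of 24, with the sarcomere ubiquitin ligase Trim63 at 411 and 1028 and the cathepsin Ctsl at 6500.3 and 8012.

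Interferon-response and antigen presentation genes, which γ-interferon can induce, differed little between day 1 and day 2 within this table. Of 62 interferon-response genes, 2 were called higher and 5 lower (median -0.057), and of 27 MHC and antigen processing genes 0 and 1 (median -0.19). The GTPase Iigp1 was 7194 and 8018, the class I chain H2-K1 was 16684 and 21314, and B2m was 26241 and 34613. Cxcl10 (103 and 30.9) and Cd74 (691 and 254) were lower. In the comparison of T0 with T24, several of these genes had a higher T24 value than here. It was 11983 for Iigp1, 5430 for Igtp (4196 here), and 999 for Gbp5 (595 here), while H2-K1 (17871) and B2m (28179) moved little. How far such genes differ between the days therefore depends on which T24 value is taken.

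Of 36 genes for the nuclear lamina, the LINC complex, and emerin partners, 1 was called higher and 6 lower. Lamin A/C (Lmna) was level at 18527 and 19491, whereas lamin B1 (Lmnb1) was 1061 and 286 and nesprin-2 (Syne2) was 349 and 58.6. Ezh2, the Polycomb methyltransferase, was 1385 and 457, and the deacetylase Hdac9 was 103 and 228, the higher gene of the list. Emd itself was 1.52-fold lower.

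Some genes with the largest ratios belong to no list. Bex1, an adaptor of neurotrophin signalling, was 142 and 1458, Tspan13, a tetraspanin, was 73.6 and 862, Chchd10, a mitochondrial protein, was 186 and 1610.3, and Rtl8b, a gene of retrotransposon origin, was 7.27 and 95.1. Pebp1 (283 and 3355) and Atp5md (65.4 and 645), also among the largest, follow the split of groups described above. Of the largest decreases, Pclaf, a PCNA-associated factor (909 and 21.7), Neil3, a DNA glycosylase (155 and 3.7), Kif14, a mitotic kinesin (261 and 6.19), and Depdc1a (648 and 18.3) were outside the lists. Prothymosin α (Ptma), among the largest losses in counts, was 17257 and 5046.

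The median called fold was 2.84 for higher genes and 2.74 for lower genes, and at 4-fold 313 genes remained higher and 379 lower. Within 0.1 of the threshold on the log2 scale, 146 higher genes lay just above it and 211 just below, and 237 lower genes lay just beyond it and 239 just short. Genes called higher gained 2.34 M normalized counts in sum, and genes called lower lost 0.991 M.

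Set beside the step from day 0 to day 1, the lists fell into several kinds. That step comes from a separately normalized table that shares the T24 group, in which 12.7% of 13432 genes were called higher and 10.6% lower. The values are given side by side, and no relation between them was tested. Because both ratios use the T24 group, a high or low T24 value alone moves them in opposite directions. Sarcomere lists were higher in both steps, with medians over the first and second step of 2.67 and 2.39 for myosin heavy chains and 2.22 and 1.59 for the Z-disc list. Mitosis genes had 23 of 71 called lower from day 0 to day 1, against 69 of 71 from day 1 to day 2, with medians of -0.86 and -4.23. Mki67 was 10348 at T0 and 4290.3 at T24 in the earlier table, a log2 ratio of -1.27, against -5.74 in the later step. The p53 list reversed, with 24 called higher in the first step and 15 lower in the second, and Ccng1 was 6549.9 at T0 and 45065 at T24 before its lower value at T48. HIF-1 targets had 11 of 26 called higher and then 7 of 26 lower. In sterol synthesis 17 of 30 were called higher in the first step, while the 4 of 30 called lower in the second are close to the share of all genes. The ATF4 list had medians of -0.25 and 0.74. Interferon-response genes were lower in the first step (31 of 62, median -1.02) and MHC genes likewise (20 of 27, median -1.27), with little difference in the second. As said above, the T24 value of several of these genes differs between the tables of both steps.

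Gene by gene, 10834 genes could be followed over both wildtype tables, with the same limit of a shared T24 group for every reversal counted here. Of these, 323 were at least 2-fold higher in both steps, 279 lower in both, 241 higher and 752 lower in the second step alone, 175 higher then lower, and 23 lower then higher. The clearest higher-then-lower genes included Pidd1, a p53 target (log2 ratios 2.30 and -2.30), the RNA-binding protein Celf5 (5.17 and -2.28), the adhesion molecule Nectin4 (4.81 and -2.49), and Tex15 (4.51 and -2.61). Lower-then-higher genes included the lipid receptor S1pr1 (-2.01 and 1.43), the microtubule-associated protein Mapt (-1.33 and 1.97), and Aldh1a2, which makes retinoic acid (-1.84 and 1.25), besides Pebp1, Atp5md, and Wdr89, which follow the split of groups described above.

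**Figure D4:**
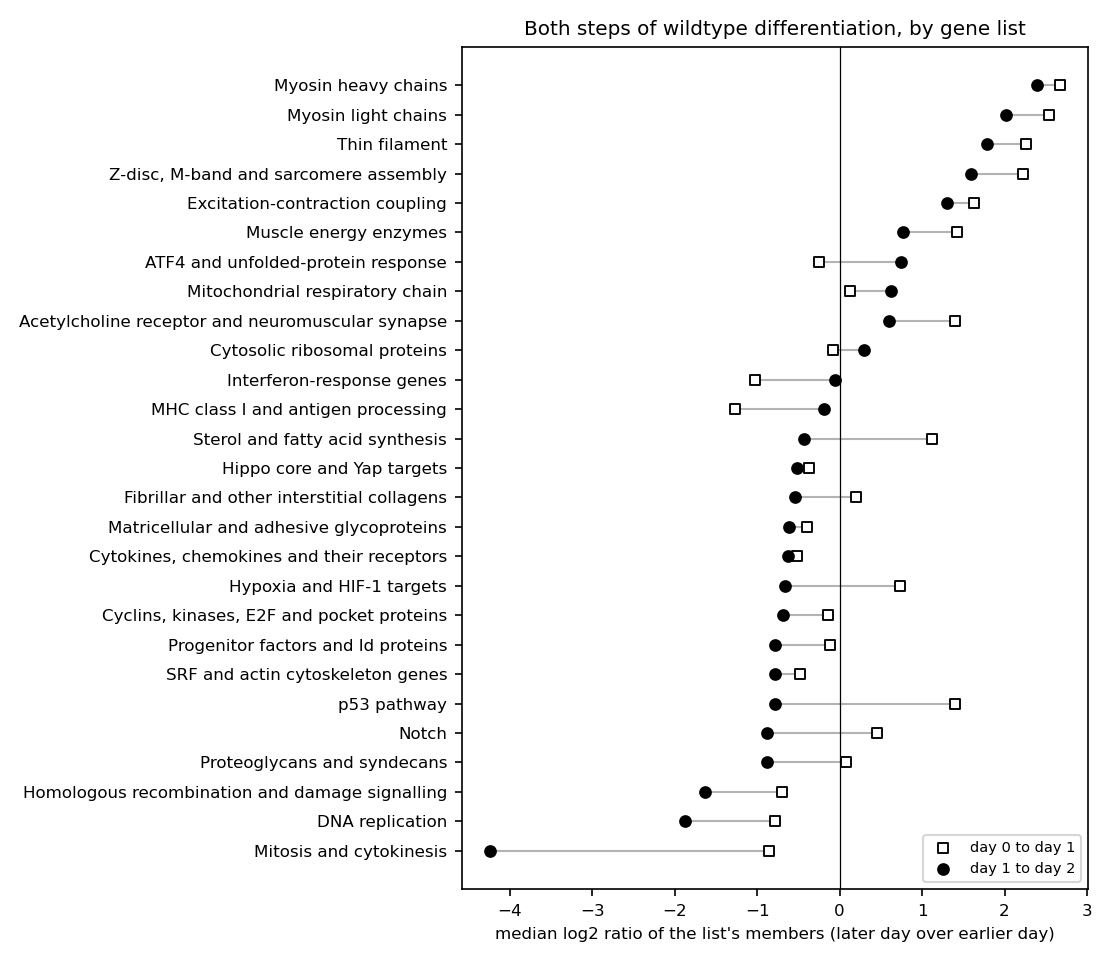
Median log2 ratio of each list's members for day 0 to day 1 (open squares) and day 1 to day 2 (filled circles), from separately normalized wildtype tables. Sarcomere lists lie at the right in both steps, mitosis genes move furthest left in the second, and p53, sterol, and HIF-1 lists lie right of 0 in the first step and left of it in the second.

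The same step in the other lines is given as a description, since each line has its own table and no test of a difference could be made from group means. The shares of genes called higher and lower from T24 to T48 were 7.81% and 11.4% in EMD-/y, 11.2% and 9.85% in +EMD, 9.54% and 11.4% in S54F, 9.17% and 5.49% in Δ95–99, and 6.55% and 4.54% in Q133H progenitors. The mitosis list had its lowest median in wildtype progenitors (-4.23), against -3.06 in EMD-/y, -1.78 in +EMD, -3.44 in S54F, -1.76 in Δ95–99, and -2.05 in Q133H. The log2 ratio of Mki67 was -5.74 in wildtype and -3.35, -1.85, -3.91, -1.71, and -2.60 in the other lines in that order. For myosin heavy chains the order differed, with a median of 2.39 in wildtype between 1.93 in EMD-/y and 4.91 in Δ95–99. These medians run over different members, with 8 past the minimum in wildtype, 7 in Q133H, and 9 in each other line. Acta1 had log2 ratios of 2.19 in wildtype, 2.20 in EMD-/y, 3.30 in +EMD, 2.67 in S54F, 4.64 in Δ95–99, and 2.88 in Q133H. Levels in these other lines are not given here, and a ratio depends on the T24 level of its own line. A larger ratio therefore does not mean a higher level at T48. In the paper, a smaller share of Δ95–99 and Q133H cells than of wildtype cells expressed myosin heavy chain protein at 48 h. Per the study's methods, mutant lines were plated more densely than wildtype, and the part of this was not tested. Igf2 was higher at T48 in all 6 lines, with log2 ratios between 0.99 in +EMD and 2.17 in Q133H. Fgf21 had a ratio of at least 4 on this scale in every line but Q133H (1.00). The SRF and actin cytoskeleton list had a median of -0.78 in wildtype and between -0.44 and -0.039 in the other 5 lines.

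**Figure D5:**
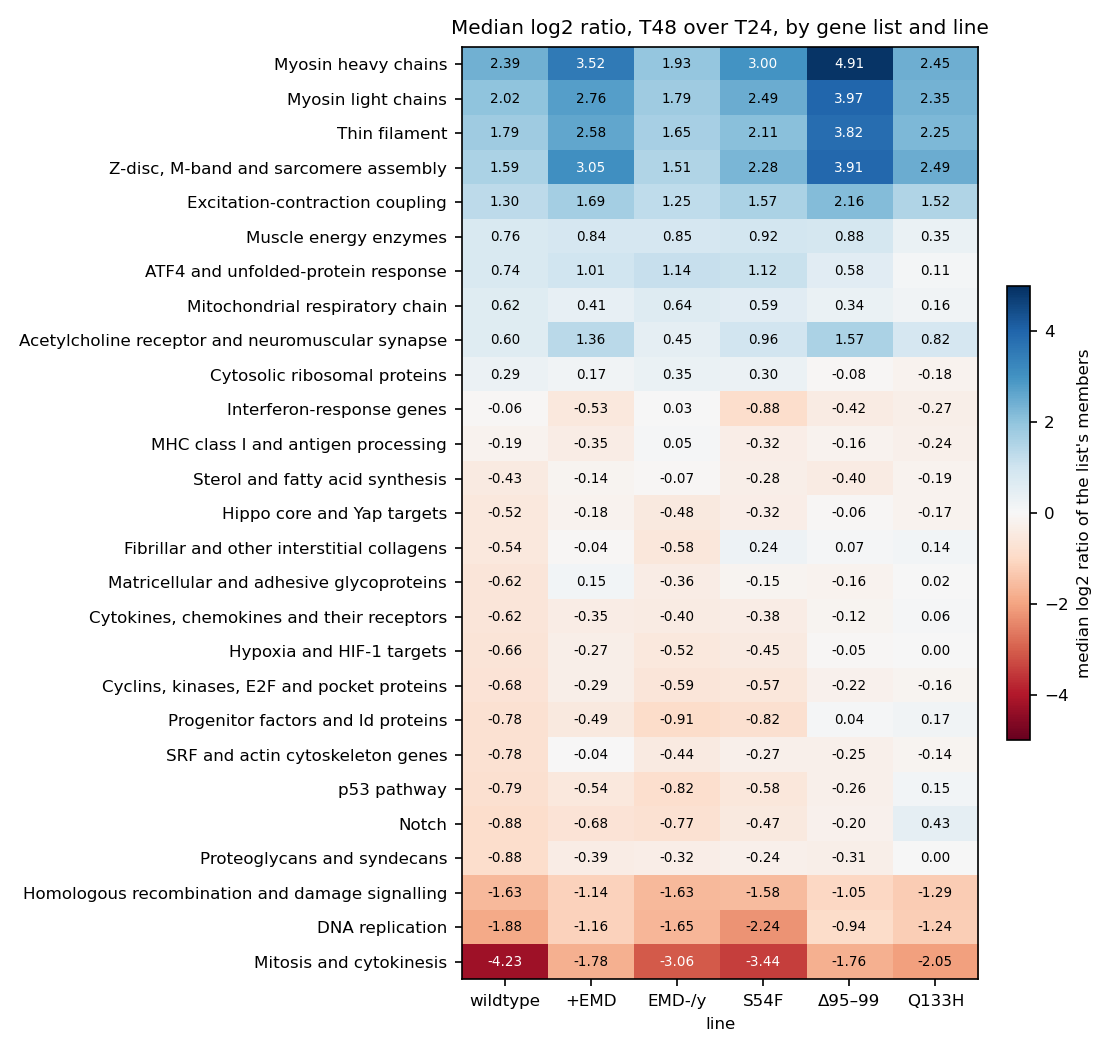
Median log2 ratio, T48 over T24, of each gene list (rows) in each line (columns), from 6 separately normalized tables, with red for lower and blue for higher at T48 and the value in each cell. In the wildtype column the mitosis cell is -4.23, the lowest of the row, and the myosin heavy chain cell is 2.39, between 1.93 and 4.91 in the other lines. Medians run over the members past the minimum in each line, a set that can differ between lines.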

How the data were processed

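RNA of H2K progenitors was sequenced on the BGISEQ-500 platform after poly(A) selection, and per the study's methods the authors filtered reads, aligned them with HISAT2 to mm10, and normalized with DESeq2 (the versions are not given in the sources used here). The 27 deposited tables give, for a pair of groups, signal values that are the authors' group means of normalized counts, together with log2 fold changes, p-values, and up or down labels of the authors' comparisons, which were not used. Values per library and depth are not analysed here, so no interval or test was computed. The lowest means were 0.158 at T24 and 0.142 at T48, and the 738 genes with a higher mean under 0.3 took only 6 pairs of values, so ratios of low genes were not interpreted.

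Log2 ratios of T48 over T24 were computed without a pseudocount in Python 3.11.15 (numpy 2.4.6, pandas 2.3.3), and figures were drawn with matplotlib 3.10.9. A gene was called at a fold of 2 with a higher mean of at least 10. Of 17313 genes, 15751 were named through RefSeq, 21 Entrez identifiers were unmatched, and 1541 were predicted genes. The 53 gene lists and all members were chosen with earlier results of these data known. The rule named Emd, every member of lists of up to 12 genes, in longer lists the 6 members with the largest ratios and the 4 with the highest means, the 15 largest ratios in each direction, the 10 largest gains and losses, and the 10 largest reversals in each direction over the days, or 466 genes. The script was tested on simulated data. Alternatives were another fold, minimum, pseudocount, scaling, and centring, and leaving out predicted genes or genes on the split of groups. Values of some genes of the lists are not reported here.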

Additional observations from a re-analysis of the deposited data

How the results depend on the processing

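At a fold of 1.5 in place of 2, 2391 genes were higher at T48 and 2947 lower, with 329 higher among the list members, and at a fold of 4 the counts were 313 and 379. Under the other alternatives (a minimum of 50, no minimum, a pseudocount of 1, columns scaled to the same sum, centring on the median, and leaving out predicted genes or genes on the split of groups), higher genes numbered between 818 and 1326 and lower genes between 1282 and 2139. Of 303 named genes that were called, 14 lost the call when columns were scaled to the same sum and 0 with a pseudocount or centring. Scaling to the same sum turned the sign of the medians of the Mef2, insulin-like growth factor, and basement membrane lists. Leaving out each replicate and the count tests planned on library values were not run, since only group means were used, and this also leaves the precision of each mean unknown. No paired analysis was possible because the columns hold group means and carry no replicate numbers.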
